A study of Mus musculus with 6 samples.

Results

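The exon array of the mouse measures many transcript clusters, groups of probe sets that the maker joined into 1 value, and here each cluster is called a probe. Of the 34502 probes in the table, 6902 are not listed in the platform annotation used here and so are unnamed here. The 1753 unlisted probes described below were chosen by their signal, as those with a mean of at least 6 on the log2 scale over the 3 wild-type samples. Because the wild-type values chose them, their levels and their differences between genotypes are given as a description. The 10073 probes with 1 gene symbol and the same limit stand beside them, and 855 probes with several symbols also met it.

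Islets were isolated with collagenase from 3 wild-type and 3 mTR-/-G4 mice, all male C57BL/6 animals of 15 months, and total RNA of each sample was hybridized to 1 array. mTR-/-G4 mice lack the telomerase RNA in every cell and were bred without it over successive generations, so that the comparison is between animals with short telomeres and animals with normal telomerase. The labels give each sample a letter, and the p-values measure the spread between these samples. Isolated islets hold endocrine cells together with vessels, stroma and adhering exocrine tissue. In such bulk samples fewer cells of a type and less RNA per cell cannot be told apart.

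An exon array carries content beyond curated genes. Its clusters were drawn from known transcripts, from expressed sequence tags and from gene predictions, so that a bright cluster can lie in a non-coding RNA, in an intron that is retained or still unspliced, in an unannotated end of a gene, or in a repeated sequence that many transcripts share. Signal in such a cluster does not say which of these it comes from. The probes were therefore described by their number, their level and the listed probes on either side of them in order of the probe number. No coordinate or sequence of an unlisted probe was used here. Probe number order was a guide to position and no more. When 24780 probes with 1 symbol were placed on chromosomes through a gene table, 86.5% of successive pairs were on the same chromosome.

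The arrays differed in ways that touch every value below. The range between the quartiles of all probes was 2.05 in mTR-/-G4 b and 2.42 to 2.79 in the other samples. The mean log2 signal of 20 measured islet endocrine markers, the hormones among them, was 10.95, 11.04 and 10.93 in wild-type a, b and c and 10.87, 10.69 and 10.86 in mTR-/-G4 a, b and c. It was lower in mTR-/-G4 islets without overlap (-0.17, exact permutation test p = 0.1, two-sided), and no single marker was called at the threshold given below. The mean of 19 measured acinar markers, digestive enzymes and regulators of the exocrine pancreas, was 8.50, 7.69 and 7.61 in wild-type a, b and c and 10.02, 9.41 and 9.06 in mTR-/-G4 a, b and c (7.93 ± 0.494 and 9.50 ± 0.483, SD, n = 3 each). The groups did not overlap, and the exact permutation test gave p = 0.1 (two-sided), the smallest that 3 against 3 allows. Of the 19, 17 were called higher and 1, Bhlha15, was called lower, at -0.60. Of 10 endothelial markers 3 were called lower and of 7 duct markers 1 was called higher, while none of the leukocyte, stellate or neural markers was called. The part of these differences in the results was not tested. A fit with the acinar mean as a covariate was run, and its values are given where they change a call. Because the acinar means of the genotypes did not overlap, this fit cannot separate acinar signal from genotype. A call lost or kept in it was not read as evidence on either.

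The limit fixed the level of both sets in wild-type islets, so the medians are given to compare samples within a set. The median signal of the unlisted probes was 7.92, 7.92 and 8.0 in wild-type a, b and c, 7.78 in mTR-/-G4 a, 7.38 in mTR-/-G4 b and 7.78 in mTR-/-G4 c. All 3 mTR-/-G4 medians were below the 3 wild-type medians, and mTR-/-G4 b was the lowest. For the probes with 1 symbol the medians were 7.29, 7.37 and 7.29 in wild-type a, b and c, and 7.28, 7.04 and 7.24 in mTR-/-G4 a, b and c. The unlisted probes also varied more between samples of 1 genotype. Their median SD was 0.204 among wild-type and 0.285 among mTR-/-G4 samples, against 0.12 and 0.163 for the probes with 1 symbol.

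**Figure D1:**
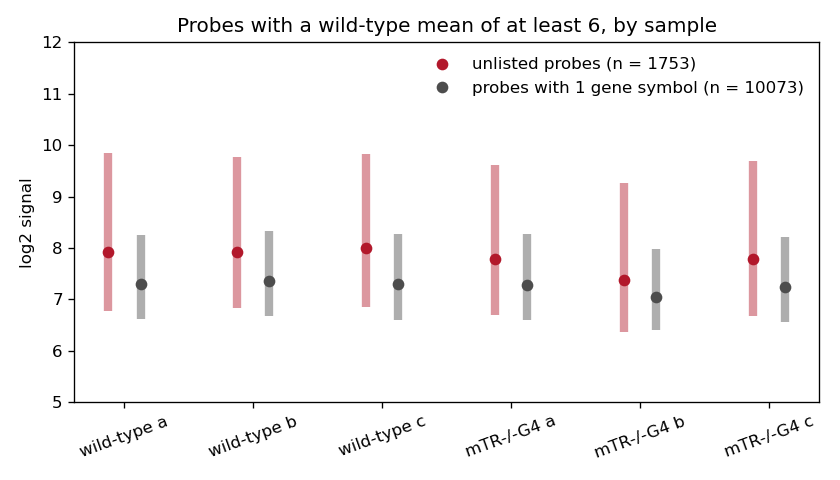
Log2 signal of the 1753 unlisted probes and of the 10073 probes with 1 gene symbol in each of the 6 samples (points, medians; bars, from the lower to the upper quartile over probes). Both sets have their lowest median in mTR-/-G4 b, at 7.38 and 7.04. The limit on the wild-type mean sets the level of both, which are not compared with each other.

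More of the unlisted probes were lower in mTR-/-G4 islets than higher. A probe was called where its fold change exceeded 1.5 in either direction with an unadjusted limma p under 0.05. At this threshold 354 of the 1753 unlisted probes (20.2%) were called lower and 42 (2.40%) higher, and 1357 were not called. Of all probes in the table, 3.61% were called lower and 2.62% higher. Of the probes with 1 symbol and the same limit, 646 (6.41%) were called lower and 108 (1.07%) higher. A limit on wild-type signal favours decreases in any set it selects. The probes with 1 symbol carry the same limit, but its effect need not be equal in both sets. The median SD among wild-type samples was 0.204 for the unlisted probes and 0.12 for those with 1 symbol. The median difference, mTR-/-G4 minus wild-type, was -0.18 over the unlisted probes, with quartiles of -0.59 and 0.09, -0.11 over those with 1 symbol and 0.10 over all probes. None of the 1753 had a Benjamini-Hochberg adjusted limma p under 0.05, and the lowest was 0.0929. An unadjusted p under 0.05 was found for 584 of them.

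Counted by overlap, the unlisted and the named probes were more alike. All 3 mTR-/-G4 values lay below all 3 wild-type values in 486 unlisted probes (27.7%), in 26.0% of the probes with 1 symbol and in 11.7% of all probes. They lay above in 143 (8.16%), in 7.0% and in 23.5%, respectively. Of the 354 unlisted probes called lower, 242 were called in each of 6 fits that left out 1 sample, and 14 of the 42 called higher were.

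**Figure D2:**
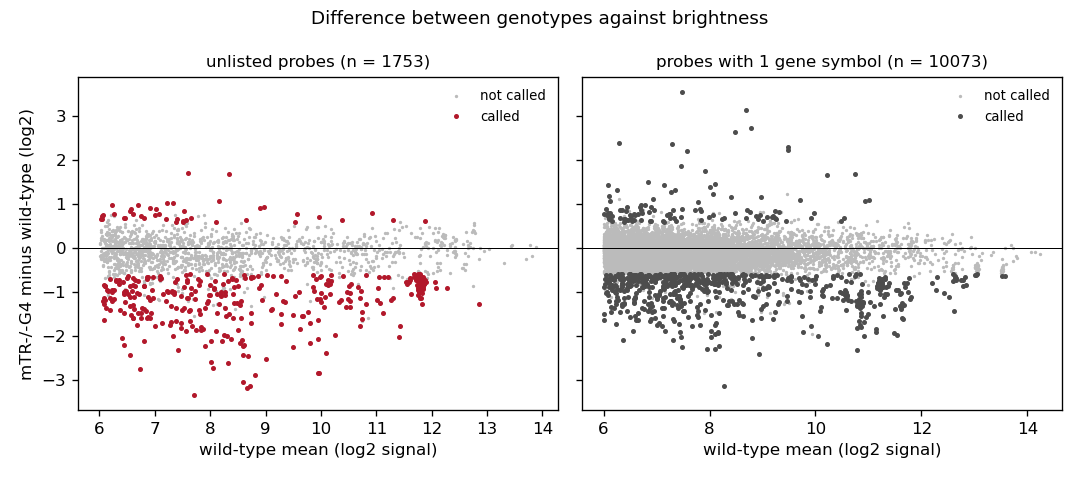
Difference between genotypes (mTR-/-G4 minus wild-type, log2) against the wild-type mean (log2 signal) for unlisted probes (left) and probes with 1 gene symbol (right), with called probes in colour and the others in grey. Among unlisted probes 354 called points lie below 0 and 42 above it, and the limit of 6 sets the left edge of both panels.

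The share called lower differed between bands of brightness. Among unlisted probes it was 14.5% at a wild-type mean from 6 to 7 (532 probes), 17.1% from 7 to 8, 20.4% from 8 to 9, 19.8% from 9 to 10 and 21.5% from 10 to 11. It was 53.1% from 11 to 12 (162 probes) and 4.60% at 12 and over (87 probes). For probes with 1 symbol it was 4.20% from 6 to 7, 17.3% from 10 to 11, 33.8% from 11 to 12 and 16.3% at 12 and over. The bands were chosen after the values were seen.

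**Figure D3:**
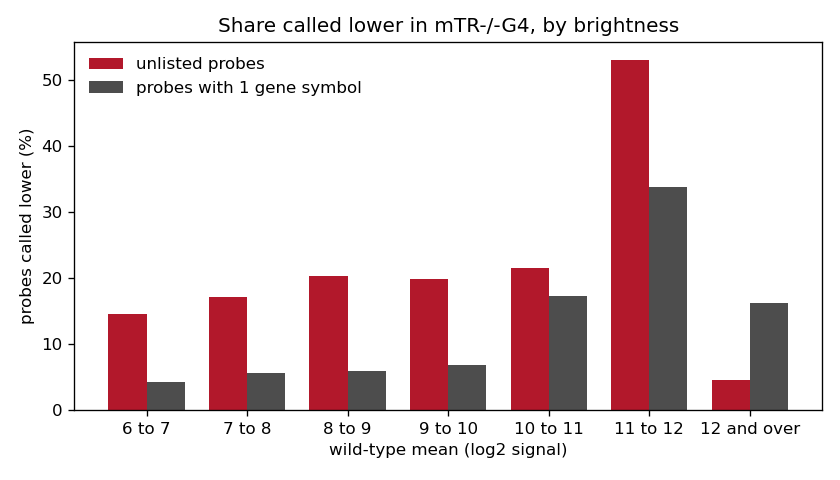
Share of probes called lower in mTR-/-G4 islets (%, bars from 0) by band of the wild-type mean (log2 signal), for unlisted probes and for probes with 1 gene symbol. The share of unlisted probes is 53.1% from 11 to 12 and 4.60% at 12 and over.

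The band from 11 to 12 held 86 unlisted probes called lower. Their median signal was 11.63, 11.78 and 11.89 in wild-type a, b and c and 11.23, 10.74 and 10.99 in mTR-/-G4 a, b and c. The levels were close to one another, with quartiles of 11.49 and 11.69 in wild-type a. Of the 162 unlisted probes in the band, 55 belonged to groups whose members lay within 0.1 of one another in every sample, a tolerance chosen after the values were seen. Over all 1753 unlisted probes, 125 fell into 56 such groups of up to 4, and probes of 1 group may read the same transcripts and were not taken as separate observations. After quantile normalization again 33 of the 86 were still called lower, without mTR-/-G4 b 67, and without mTR-/-G4 b and wild-type c together 43. With the acinar covariate 22 of the 86 were called lower, and at a 2-fold threshold 14.

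Named probes were also divided by how often their symbol recurs. Where a symbol stood on 5 or more bright probes (698 probes, 55 symbols), 34.4% were called lower, against 7.75% for symbols on 2 to 4 and 3.25% for symbols on 1 bright probe. These sets were not matched for brightness or spread. Their median SD among wild-type samples was 0.24, 0.143 and 0.109. Sgip1, which encodes a protein of clathrin-mediated endocytosis, was listed for 100 bright probes, of which 75 were called lower, with a median difference of -0.81. Slc38a6, a member of the amino acid transporter family, was listed for 85, of which 45 were called lower. Noct was listed for 74, of which 8 were called lower and 6 higher, with a median difference of -0.1. For 2610005L07Rik 10 of 34 were called lower, and for Gm4759 16 of 19. Ap3d1, a subunit of the AP-3 adaptor of vesicle transport, was listed for 19 and Hnrnpa3, an RNA-binding protein, also for 19, and none of these was called lower. The median wild-type level was 11.07 for Sgip1, 11.28 for Slc38a6, 11.62 for Gm4759, 11.41 for Ap3d1 and 10.53 for Hnrnpa3. Some of these probes lie in the band from 11 to 12, where 33.8% of probes with 1 symbol were called lower. The divisions by symbol and by brightness therefore overlap, and the part of brightness in these shares was not tested. Probes that share a symbol in such numbers need not measure that gene. These symbols were chosen after their values were seen.

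The samples did not contribute equally. Wild-type c was the highest wild-type sample in 289 of the 354 unlisted probes called lower (81.6%) and in 43.7% of all 1753. mTR-/-G4 b was the lowest mTR-/-G4 sample in 300 of the 354 (84.7%) and in 67.0% of all 1753. The probes with 1 symbol that were called lower had a similar pattern, with wild-type c the highest wild-type sample in 76.0% and mTR-/-G4 b the lowest mTR-/-G4 sample in 83.6%. mTR-/-G4 b alone lay at least 1 below each of the other 5 samples in 140 unlisted probes (7.99%) and in 143 probes with 1 symbol (1.42%). Wild-type c alone lay at least 1 above each of the others in 37 (2.11%) and in 19 (0.189%). Without mTR-/-G4 b 277 unlisted probes (15.8%) were called lower, without wild-type c 288 (16.4%), and without both 221 (12.6%). The shares fell in the other sets too. Of the probes with 1 symbol 4.33%, 4.91% and 3.83% were called lower in these fits, against 6.41% with every sample. Of all probes 2.63%, 2.92% and 2.32% were, against 3.61%.

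The stretch around Kcnq1ot1 held the longest run. Kcnq1ot1 is an imprinted long non-coding RNA, transcribed from the paternal chromosome in antisense to the potassium channel gene Kcnq1, and it acts in cis to silence neighbouring genes. The annotation lists 7 probes for it, and 18 bright unlisted probes are numbered between them. Of the 18, 17 were called lower, with a median difference of -1.49 over the 18 and a range from -2.62 to -0.49, and the genotypes did not overlap in 16. The probe that was not called, 6972369, also lay lower (-0.49 ± 0.14, SE). Of the 7 listed probes 5 were called lower, with a median of -1.61. The other listed probes, 6972362 and 6972386, were dim, with wild-type means of 3.82 and 4.67. The unlisted probes 6972372 to 6972379 formed a run of 8 without a gap, from -2.17 to -0.86.

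Levels differed from probe to probe along this stretch. Wild-type c was the highest wild-type sample in 17 of the 18 unlisted probes, and mTR-/-G4 b was the lowest mTR-/-G4 sample in 13. The brightest unlisted probe, 6972367, was at 9.72, 9.83 and 10.63 in wild-type a, b and c and at 9.34, 8.05 and 8.78 in mTR-/-G4 a, b and c (-1.33 ± 0.36, SE, adjusted p = 0.144 by limma). Probe 6972383 was at 8.29, 8.53 and 8.97 in wild-type and at 6.90, 6.42 and 5.79 in mTR-/-G4 islets (-2.23 ± 0.30, SE, adjusted p = 0.0929 by limma). The largest difference was at 6972370, with 7.62, 8.36 and 8.97 in wild-type and 6.44, 4.16 and 6.49 in mTR-/-G4 islets (-2.62 ± 0.65, SE). In these 3 probes wild-type c was the highest sample and the genotypes did not overlap. The listed probe 6972380 was at 9.69, 10.05 and 10.93 in wild-type and at 8.95, 6.89 and 8.28 in mTR-/-G4 islets (-2.18 ± 0.54, SE).

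Without mTR-/-G4 b 14 of the 18 unlisted probes were called lower, without wild-type b, wild-type c or mTR-/-G4 c 15 each, and 12 passed by the methods' t-test. With the acinar mean as a covariate 1 of the 18 and none of the 7 listed probes was called. The probes of the stretch lie beside one another and may read 1 transcript, so they were not taken as 18 observations.

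**Figure D4:**
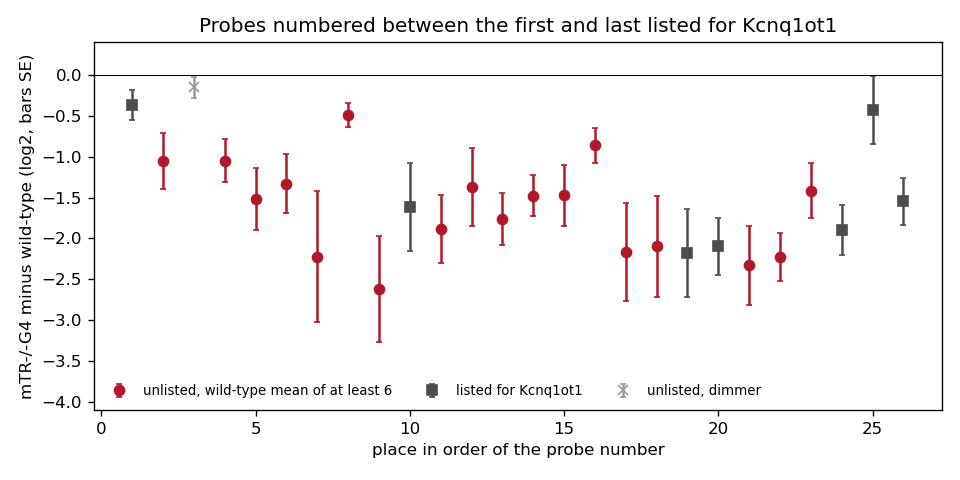
Difference between genotypes (mTR-/-G4 minus wild-type, log2, bars SE from limma) for the 26 probes numbered from the first to the last listed for Kcnq1ot1, by place in that order. The 18 bright unlisted probes lie between -2.62 and -0.49, beside 7 listed probes and 1 dimmer unlisted probe.

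Outside the Kcnq1ot1 stretch 337 unlisted probes were called lower, and 54 of them (16.0%) stood directly beside another in number order, in 22 runs. Of the 1356 not called there, 48 (3.54%) stood beside one called lower. A nearest named probe on either side was called lower for 76 of the 337 (22.6%) and for 115 of the 1356 (8.48%). Of the 42 called higher, 2 stood in a run.

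The run next in length lay between Esrrg, an orphan nuclear receptor, and Ptpn14, a tyrosine phosphatase. It held 5 probes, 6756149 to 6756175, with differences from -1.29 to -0.70. Probe 6756151 was at 8.22, 8.52 and 8.88 in wild-type and at 7.47, 6.77 and 7.51 in mTR-/-G4 islets (-1.29 ± 0.24, SE, adjusted p = 0.0976 by limma). Of the 8 bright unlisted probes between these genes 6 were called lower, and wild-type c was the highest sample in each of the 8. This stretch was chosen for its run of calls, and 20.2% of all 1753 unlisted probes were called lower. The nearest named probes were not called, with -0.37 for Esrrg and -0.04 for Ptpn14. Of the 4 probes listed for Ptpn14, 6756243 was called lower (-0.81), a probe named after its value was seen. Without mTR-/-G4 b and wild-type c together 2 of the 8 were called, and with the acinar covariate none.

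There were 3 runs of 4, 1 of them in the Kcnq1ot1 stretch. Between St3gal4, a sialyltransferase, and Dcps, a scavenger enzyme of messenger RNA decay, the probes 6994580 to 6994583 were called lower in each fit that was run. Probe 6994583 was at 10.06, 10.02 and 9.73 in wild-type and at 8.54, 5.50 and 7.25 in mTR-/-G4 islets (-2.84 ± 0.67, SE, adjusted p = 0.124 by limma). Probe 6994581 was at 9.61, 9.67 and 9.24 in wild-type and at 8.29, 6.33 and 7.12 in mTR-/-G4 islets (-2.26 ± 0.45, SE). Here wild-type c was the lowest wild-type sample, unlike in the Kcnq1ot1 stretch, and mTR-/-G4 b was the lowest sample in both of these probes. St3gal4 (-0.26) and Dcps (-0.09) were not called.

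The other run of 4 lay before A330076H08Rik, which was itself called lower at -1.20, from 10.76 to 9.56. Probe 6967795 was at 7.73, 8.66 and 9.78 in wild-type and at 5.42, 4.64 and 6.72 in mTR-/-G4 islets (-3.13 ± 0.64, SE). Probe 6967796 was at 9.31, 10.002 and 10.57 in wild-type and at 8.18, 6.33 and 6.82 in mTR-/-G4 islets (-2.85 ± 0.50, SE). The genotypes did not overlap in either. The named probe on the other side, Ube2nl, was not called (0.38), and with the acinar covariate 1 of the 4 was called.

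The largest decrease among the unlisted probes was at 6844929, numbered between Fgf12, a fibroblast growth factor homologue that binds sodium channels, and Mb21d2. Its signal was 6.70, 7.73 and 8.72 in wild-type a, b and c and 4.57, 4.40 and 4.16 in mTR-/-G4 a, b and c (-3.34 ± 0.45, SE, adjusted p = 0.0929 by limma). The wild-type samples spanned 2.01 and the mTR-/-G4 samples 0.40, and the genotypes did not overlap. The same stretch held 6844934 (-3.17 ± 0.49, SE), 6844928 (-2.74 ± 0.32, SE) and 6844935 (-2.11 ± 0.59, SE), so that its 4 bright unlisted probes were all called lower. Fgf12 was called lower too, at -0.84, and Mb21d2 was not (0.13). The dimmer unlisted probe between them, 6844933, was at -1.14 and was not called. With the acinar covariate 2 of the 4 were called. This stretch was described after its values were seen.

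The other large decreases stood apart in number order. Probe 6935306, between Amz1 and Sdk1, was at 8.29, 8.09 and 9.38 in wild-type and at 6.64, 3.73 and 6.26 in mTR-/-G4 islets (-3.04 ± 0.75, SE). Probe 6782240, between Fbxo39 and Ggt6, was at 8.61, 8.22 and 9.60 in wild-type and at 6.66, 4.49 and 6.60 in mTR-/-G4 islets (-2.89 ± 0.62, SE). In both, mTR-/-G4 b was more than 1 below the other mTR-/-G4 samples. Probe 6946665, after Ccser1, was at 6.34, 6.42 and 7.45 in wild-type and at 4.34, 3.69 and 3.92 in mTR-/-G4 islets (-2.75 ± 0.32, SE), and Ccser1 was called lower at -0.63. Each of the 10 unlisted probes with the largest decrease stayed called with any 1 sample left out, by the methods' t-test and after quantile normalization again. With the acinar covariate 5 stayed called. Of those that did not, 6935306 was at -3.22 and 6782240 at -2.88 with the covariate, about as in the fit without it, while 6972370 was at -1.90, 6844929 at -2.16 and 6967795 at -0.86. Wild-type c was the highest wild-type sample in 9 of the 10 and mTR-/-G4 b the lowest mTR-/-G4 sample in 9 of the 10.

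**Figure D5:**
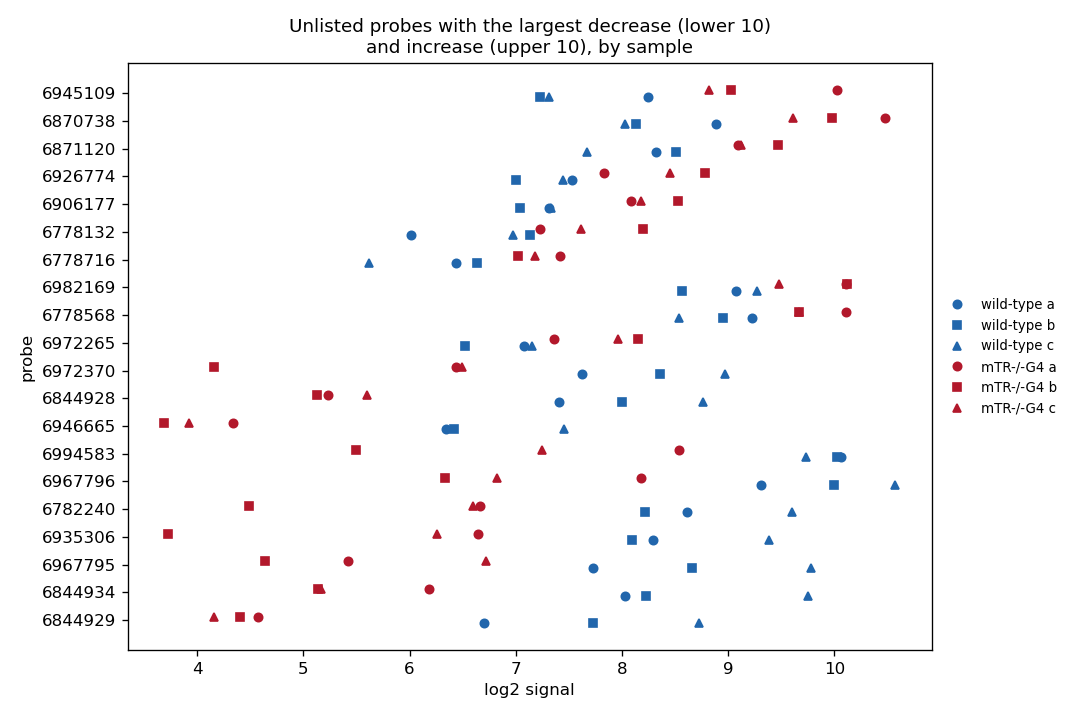
Log2 signal in each of the 6 samples for the 10 unlisted probes with the largest decrease and the 10 with the largest increase among those called without overlap (blue, wild-type; red, mTR-/-G4; shape, sample letter). Decreases run from -3.34 to -2.62 and increases from 0.90 to 1.70.

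The increases were smaller and fewer. The largest was at 6945109, between Ssmem1 and Cpa4, a carboxypeptidase. Its signal was 8.24, 7.23 and 7.31 in wild-type a, b and c and 10.02, 9.03 and 8.82 in mTR-/-G4 a, b and c (1.70 ± 0.38, SE, adjusted p = 0.116 by limma). Within each genotype sample a was the highest, as it was for the acinar mean, and with the acinar covariate the difference was -0.19. The listed acinar carboxypeptidase Cpa1 has the probe number 6945114, close to this one, and was called higher (1.06). It was named after its value was seen. Probe 6870738 was at 8.88, 8.13 and 8.03 in wild-type and at 10.48, 9.98 and 9.61 in mTR-/-G4 islets (1.67 ± 0.29, SE). The probe before it, 1810007D17Rik, was called higher at 1.54, and with the acinar covariate the difference of 6870738 was 0.23. Whether acinar tissue had a part in either increase was not tested, as the covariate cannot be separated from genotype.

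Other increases had other patterns over the samples. Probe 6906177, between Golim4, a Golgi membrane protein, and Zfp114, was at 7.31, 7.04 and 7.33 in wild-type and at 8.08, 8.53 and 8.18 in mTR-/-G4 islets (1.03 ± 0.15, SE, adjusted p = 0.0929 by limma). With the acinar covariate it was at 1.07 and stayed called. Probe 6871120, between Mus81, a subunit of a DNA structure-specific endonuclease, and Snx32, was at 8.32, 8.51 and 7.67 in wild-type and at 9.09, 9.47 and 9.12 in mTR-/-G4 islets (1.06 ± 0.23, SE). With the covariate it was at 0.85 and was no longer called. Probe 6778132, between the olfactory receptor genes Olfr814 and Olfr815, was at 6.01, 7.13 and 6.97 in wild-type and at 7.23, 8.20 and 7.61 in mTR-/-G4 islets (0.98 ± 0.35, SE). It lost its call without wild-type a, without mTR-/-G4 b and by the methods' t-test. With the acinar covariate its difference was 2.34, against 0.98 without it, and it stayed called. Of the 10 largest increases 9 stayed called with any 1 sample left out, and 2 with the acinar covariate. Among those that lost the call with the covariate, 6926774 moved from 1.03 to 1.35 and 6972265 from 0.90 to 1.26.

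The brightest unlisted probes did not pass the threshold. Probe 6754693, between F5, which encodes coagulation factor V, and Slc19a2, a thiamine transporter, was at 13.92, 13.89 and 13.85 in wild-type and at 13.81, 13.87 and 14.05 in mTR-/-G4 islets (0.02 ± 0.10, SE). Probes 7000192, 7004660, 6850393 and 6747451 followed, with wild-type means from 13.81 to 13.45 and differences from -0.24 to 0.06. The genotypes overlapped in 6754693, 7000192, 7004660 and 6747451, and 6850393 was lower in each mTR-/-G4 sample (13.44, 13.38 and 13.58 against 13.72, 13.69 and 13.71) by less than the fold limit.

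Some unlisted probes spread more within a genotype than between them. Probe 7009286 was at 8.86 in wild-type a and at 5.12 and 5.02 in wild-type b and c, so that 1 sample carried it over the limit, and at 5.57, 6.04 and 6.41 in mTR-/-G4 islets. In mTR-/-G4 islets the widest ranges were at 6913475 (8.41, 5.40 and 9.30), 6916650 (10.26, 6.85 and 10.67) and 6915533 (8.96, 5.70 and 9.37), with mTR-/-G4 b the low sample in each. None of these was called.

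Apart from the Kcnq1ot1 stretch, 44 bright unlisted probes had the same symbol on both sides. Gm6710 flanked 19, of which 6 were called lower (median difference -0.35), beside 20.2% of all 1753. Gm6710 was itself listed for 18 bright probes, of which 10 were called lower, so the probes it flanked need not lie in that gene. Gbf1, an exchange factor for Arf GTPases at the Golgi, flanked 3, of which 2 were called lower (median -1.48). Csnk1g3 flanked 2, of which 1 was called lower. Single probes were called lower between probes of E330016L19Rik (-1.71), Mob3b (-0.75) and Zcchc7 (-0.63). The same held for Rasal2, a Ras GTPase-activating protein (-1.06), and Matr3, a nuclear matrix protein that binds RNA (-0.81). Those numbered between probes of Tnrc6b (0.02), Nkain2 (0.13) and Commd10 (0.23) were not called.

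The limit of 6 cut through a continuous range. Just inside it were 6820331, 6897769 and 6808398, with wild-type means of 6.003, 6.016 and 6.018 and differences of 0.12, 0.09 and -0.19. Just outside were 6819539, 6954444 and 6970022, with wild-type means of 5.999, 5.999 and 5.998 and differences of 0.28, 0.06 and 0.12. Among the 5149 dimmer unlisted probes 87 (1.69%) were called lower and 263 (5.11%) higher, with a median difference of 0.20. Of all probes 3.61% were called lower and 2.62% higher. A low wild-type mean favours increases in the set it selects. The lower quartile of all probes was 4.56 in mTR-/-G4 b and 4.10 to 4.36 in the other samples, and its part in these counts was not tested. Of the dimmer probes 95 had a mean of at least 6 only in mTR-/-G4 islets. This choice fixed their direction, and 25 of them were called higher. The probe with an adjusted limma p under 0.05 in the whole table was also unlisted and lay just outside. Probe 6792469 was at 5.85, 5.92 and 5.85 in wild-type and at 4.12, 4.32 and 4.27 in mTR-/-G4 islets (-1.63 ± 0.10, SE, adjusted p = 0.023 by limma).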

How the data were processed

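Total RNA from purified islets of 3 wild-type and 3 mTR-/-G4 mice was hybridized to mouse exon arrays. The authors deposited log2 values made with Robust Multichip Analysis in Partek (version not given in the sources used here). This method pulls the arrays toward 1 distribution and summarizes probe sets that can cross-hybridize. The submitters' processing notes name build mm9. An unpaired comparison of the genotypes was fitted in R 4.3.3 with lmFit and eBayes of limma 3.58.1 (prior degrees of freedom 3.14) over all 34502 probes, with no filter on dim probes and with Benjamini-Hochberg adjustment. The fit was tested on simulated data. Probes were called at the threshold of the study, which is a fold above 1.5 with an unadjusted p under 0.05. Symbols came from the platform annotation, and 97.7% of probes with 1 symbol were given a chromosome through a gene table of assembly GRCm38.p6, used for neighbour order alone. Named were the 10 largest increases and decreases among called probes without overlap, the 5 brightest, the 3 on each side of the limit, the 3 widest ranges in each genotype, an adjusted p under 0.05, and the longest runs. Others were chosen after their values were seen, as were the stretches, the bands, the recurring symbols and the near-identical groups. The members and lists were chosen with earlier results of these data known. Precision is limited by the 3 arrays of each genotype.

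Alternatives were the methods' Student's t-test, quantile normalization again, centring on the array median, a 2-fold threshold, a trended and robust prior, array weights, a block by sample letter, the acinar mean as a covariate, other limits and other values for choosing the probes, each sample left out, the brighter probes alone, and identical values counted once. Near-identical probes counted once, gene-by-gene array weights, and mTR-/-G4 b and wild-type c left out together were added after the data were seen.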

Additional observations from a re-analysis of the deposited data

How the results depend on the processing

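In every alternative run, more unlisted probes were called lower than higher. The 42 called higher became 27 by the methods' t-test, 66 after quantile normalization again, 24 with arrays centred on their medians, 5 at a 2-fold threshold and 26 with the acinar covariate. Of all probes 1.47%, 1.88%, 1.52%, 0.42% and 2.91% were called higher in these, against 2.62% in the fit described above. Other limits changed the set of unlisted probes, of which 2.4% of 1753 were called higher with the limit of 6. With a wild-type limit of 5, 83 of 2608 (3.18%) were called higher, and with a limit of 7, 26 of 1221 (2.13%). When the mTR-/-G4 mean chose the probes, 67 of 1675 (4%) were. The 354 called lower became 183 at a 2-fold threshold, 170 with the acinar covariate and 221 without mTR-/-G4 b and wild-type c together. Of all probes 1.39%, 3.04% and 2.32% were called lower in these, against 3.61% in the fit described above. With 1 sample left out, 277 (without mTR-/-G4 b) to 427 (without mTR-/-G4 a) unlisted probes were called lower and 35 to 55 higher. Their median difference ran from -0.24 to -0.07. The lower share of the calls was 89.4%, 79.4% after quantile normalization again and 94.4% with centred arrays. Of the 354, 253 kept their call after quantile normalization again and 89 with the acinar covariate. The acinar means of the genotypes do not overlap, so the covariate also takes up the genotype. The difference of 6945109 turned to -0.19 with that covariate. Why these settings moved the counts was not tested.

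Array weights gave 71 higher and 347 lower, but their estimation did not converge and put a weight of 14.3 on mTR-/-G4 c. Gene-by-gene weights gave 41 and 337. Of all probes 3.57% were called higher and 3.8% lower with the former, and 2.78% and 3.33% with the latter. Adjusted p-values under either were not used. A block by sample letter gave 46 higher and 407 lower, with an adjusted limma p under 0.05 for 47 unlisted probes. Of all 34502 probes 2.94% were called higher and 4.02% lower with this block, and 181 had such an adjusted p. Deviations of same-lettered samples correlated at 0.04, -0.16 and 0.11, so the letters were not taken as pairs. Counting identical values once left all 1753 unlisted probes and all 10073 probes with 1 symbol. The depth of an array is not a count, and its precision rests on 3 samples per genotype.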
